A study of Mus musculus with 26 samples.

Results

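Collagens, laminins and integrins are the structural proteins of the extracellular matrix, its basement membrane organisers and the cell surface receptors that bind both. They were followed here as 1 gene group in the dorsal root ganglia (DRG) of mice, where the cell bodies of sensory neurons lie. Members were chosen by symbol alone: every Col gene with a chain number, every laminin Lama, Lamb or Lamc gene and every Itga or Itgb gene in the count tables. The rule took 81 of 55401 counted genes, namely 44 collagens, 11 laminins and 26 integrins. No expression value enters that rule.

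The series set a conditional knockout of the aryl hydrocarbon receptor gene Ahr (cKO) against controls in 26 libraries of poly(A) RNA. The cKO mice were Ahr f/f with Thy1-CRE(ERT2/EYFP), a Cre recombinase switched on by tamoxifen and driven by the Thy1 promoter, which is active in neurons, so recombination is aimed at neurons and not at the other cells of the ganglion. The naive and the injured ganglia each had 3 control and 3 cKO libraries. These mice received 100 mg/kg tamoxifen for 5 days at 28 weeks of age, controls included, and L4 to L6 ganglia were taken 5 weeks later between ZT2 and ZT4 (hours after lights on), in the injured groups 1 day after a sciatic nerve crush. The controls of those 2 sets were Ahr fl/+ in replicates 1 and 2 and Ahr fl/fl in replicate 3, without Cre. Sham surgery gave ganglia of the operated (ipsilateral) and the opposite (contralateral) side after 1 day from 2 male cKO mice and 2 male controls, 1 of them Ahr f/+ and 1 Ahr fl/fl, so both sides come from the same mice. The last 2 groups were semi-purified DRG neurons 24 hours after seeding in culture, from 3 female cKO and 3 female Ahr fl/fl control mice. For the sham and the neuron libraries the labels name no tamoxifen dose.

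Libraries of naive and injured ganglia held 20169388 to 23540375 counts each, those of sham ganglia 39306414 to 58751270 and those of neurons 25299938 to 88180611. Markers of neurons, Schwann cells, satellite glia, fibroblasts, endothelial cells and leukocytes were all detected in each group, so the ganglion libraries are of whole tissue and the neuron libraries hold other cells as well. In such bulk samples, fewer cells of a type and less RNA per cell cannot be told apart. Ahr RNA did not check the genotype labels: it was 21.1 ± 2.69 CPM (counts scaled to library size, SD, n = 3) in naive control and 23.7 ± 2.82 in naive cKO ganglia, and 50.8 ± 5.34 against 49.3 ± 6.75 in neurons (edgeR adjusted p = 0.754 and 0.917). Counts cover the whole gene, so a deleted exon in part of the cells need not lower them. Thy1, the gene whose promoter drives the transgene, did follow the labels, with 674 to 760.5 CPM in naive control and 1194 to 1336 in naive cKO libraries (adjusted p = 0.00191). It was also called in injured ganglia (edgeR adjusted p = 0.00521). In neurons and in sham ipsilateral and contralateral ganglia all cKO libraries lay above all control ones. Thy1 was not called in these (edgeR adjusted p = 0.298, 0.498 and 0.105). Sex-linked transcripts went against the sex label in 2 of 26 libraries: the library labelled male in injured control (replicate 3) had female transcripts, and the library labelled female in injured cKO (replicate 2) had male ones. Naive libraries were all female, so sex changes along with injury in 2 of the 3 injured cKO libraries. The column names give each replicate of a group as a mouse of its own.

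Collagens form the fibres (types I, III and V), the basement membrane network (type IV) and the microfilaments (type VI) around cells. Laminins are secreted trimers of an alpha, a beta and a gamma chain, and they give basement membranes their adhesive face. Integrins are pairs of an alpha and a beta subunit. The alpha 3, alpha 6 and alpha 7 subunits with beta 1 bind laminin, alpha 1, alpha 2, alpha 10 and alpha 11 bind collagen, alpha 5, alpha 8 and alpha v bind RGD-containing proteins such as fibronectin and vitronectin, and the subunits paired with beta 2 are restricted to leukocytes. In the peripheral nerve, laminin of the Schwann cell basement membrane is the classical substrate on which sensory axons regrow, and the integrin alpha 7 beta 1 of the neuron is one of its receptors.

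The members that rose after nerve crush in both genotypes were Itga7, Itga3, Itgb1, Itgav, Col16a1 and Col6a5. The sequences just upstream of the start of 5 of them are shown because these genes share that call after crush. Itga7 has no promoter entry. They are RefSeq promoter sequences of build GRCm38.p6, read 5′ to 3′ and ending at the base before the annotated gene start, of 250 bases, or 163 for Itga3. Capitals mark matches, on either strand, to 4 motifs searched by their letters: the AP-1 element TGACTCA, the cAMP response element TGACGTCA, the core GCGTG bound by AhR with its partner Arnt, and the GC box GGGCGG.
Itgb1 (chr8:128685404-128685653, plus strand): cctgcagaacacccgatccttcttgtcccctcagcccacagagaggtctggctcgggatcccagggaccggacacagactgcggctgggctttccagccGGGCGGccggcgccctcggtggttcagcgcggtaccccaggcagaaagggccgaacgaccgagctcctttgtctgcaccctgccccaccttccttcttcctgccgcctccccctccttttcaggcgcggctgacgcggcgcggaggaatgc
Itga3 (chr11:95076802-95076964, minus strand): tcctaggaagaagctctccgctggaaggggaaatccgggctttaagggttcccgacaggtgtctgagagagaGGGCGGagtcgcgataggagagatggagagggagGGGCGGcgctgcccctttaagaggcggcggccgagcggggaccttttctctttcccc
Itgav (chr2:83724147-83724396, plus strand): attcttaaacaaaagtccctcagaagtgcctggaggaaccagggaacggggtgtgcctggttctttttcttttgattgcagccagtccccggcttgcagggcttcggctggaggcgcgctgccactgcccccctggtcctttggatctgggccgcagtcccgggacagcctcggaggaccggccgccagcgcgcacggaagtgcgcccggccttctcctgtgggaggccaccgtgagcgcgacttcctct
Col16a1 (chr4:130047590-130047839, plus strand): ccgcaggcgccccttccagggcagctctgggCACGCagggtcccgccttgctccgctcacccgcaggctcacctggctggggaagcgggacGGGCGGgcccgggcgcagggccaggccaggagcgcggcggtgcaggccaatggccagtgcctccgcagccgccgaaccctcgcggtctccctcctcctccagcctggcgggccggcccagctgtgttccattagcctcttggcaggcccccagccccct
Col6a5 (chr9:105960644-105960893, minus strand): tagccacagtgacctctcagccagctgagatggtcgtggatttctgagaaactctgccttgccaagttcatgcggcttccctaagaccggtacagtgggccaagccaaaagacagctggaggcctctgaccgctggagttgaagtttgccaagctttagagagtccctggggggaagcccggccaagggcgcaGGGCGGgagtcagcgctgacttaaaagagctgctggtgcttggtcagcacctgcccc
The AP-1 and cAMP elements matched none of the 5, and matched 4.46% and 1.55% of the 32851 RefSeq windows of 250 bases. The AhR core was present in Col16a1 alone, as CACGC, its reverse complement, against 28.2% of all windows. A GC box was present in 4 of the 5 (Itgb1, Itga3, Col16a1 and Col6a5) against 32.7% of all windows. A match is a string of letters, and nothing about binding was measured.

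Compared per kilobase of exon, so that genes of different length share a scale, Itgb1, the common partner of most alpha subunits, was the highest member in every tissue. Its median was 68.0 (66.6 to 68.9) CPM per kb over the 6 naive libraries, lowest and highest in parentheses, 100.3 (96.1 to 112) over the 6 injured, 73.2 (65.6 to 77.6) over the 8 sham and 157 (150.2 to 192) over the 6 neuron libraries. No other member's range reached that of Itgb1 in any of the 4. In naive ganglia it was followed by the fibre collagens and by Col28a1, a collagen known from Schwann cells: Col1a1 at 17.9 (6.72 to 26.2), Col1a2 at 15.5 (6.47 to 19.1), Col28a1 at 14.1 (11.97 to 17.01) and Col3a1 at 12 (6.65 to 16.6) CPM per kb. These 4 ranges overlap, so their order is not fixed by the data. In injured ganglia the laminin receptor subunits Itga7 at 34.0 (26.7 to 41.7) and Itga3 at 18.4 (16.1 to 23.0) came next, without overlap between them, then Col28a1 at 15.1 (13.4 to 17.7) and Itgb8 at 12.5 (10.9 to 14.6) CPM per kb, whose ranges overlap with their neighbours from Itga3 on. The next 4 places in sham ganglia went to Itga7 at 23.0 (20.97 to 45.6), Itga3 at 20.9 (18.1 to 28.9), Col28a1 at 19.7 (18.4 to 22.2) and Col1a1 at 19.5 (7.57 to 21.7) CPM per kb, with overlapping ranges. In cultured neurons they went to Col4a1 at 82.7 (72.6 to 129.7), Itga7 at 70.7 (52.1 to 77.4), Col4a2 at 66.5 (59.9 to 106) and Lamc1 at 50.1 (46.3 to 59.1) CPM per kb. Neighbours in that order overlap, except Col4a2 and Lamc1. Of the 81 members, 8 reached 10 CPM per kb in naive ganglia and 18 in neurons, while 41 and 37 stayed under 1. By the deposited FPKM, which divide by the gene's span with introns, Itga7 or Col1a1 led in place of Itgb1, and Col28a1 dropped to rank 20 in naive ganglia.

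At 1 day after sciatic crush, the integrin subunits Itga7, Itga3, Itgb1 and Itgav and the minor collagens Col16a1 and Col6a5 rose in ganglia of both genotypes, while the abundant fibre collagens and the main laminin chains were not called. In control ganglia 6 of 78 tested members rose and 2 fell, 10.3% of the members against 21.6% of all 21261 genes tested, namely 12.9% higher and 8.73% lower. In cKO ganglia 7 rose and 4 fell, 14.1% against 18.6% of all genes (10.7% higher and 7.89% lower). By family, 4 of 26 integrins rose in each genotype, with 0 falling in control and 1 in cKO. Of the 41 tested collagens, 2 rose in each genotype, and 1 fell in control and 3 in cKO. Of the 11 laminins, 1 fell in control and 1 rose in cKO. The median log2 fold change of the members was -0.12 in control and -0.067 in cKO, beside -0.018 and -0.0046 over all genes. All 6 members that rose in control also rose in cKO, as 6 of its 7. Only Col9a2 fell in both, 1 of 2 in control and 1 of 4 in cKO. The sign was shared by 65 of 78 members (83.3%) and by 77.9% of all genes, and the 2 comparisons have no library in common. Calls are edgeR quasi-likelihood tests at a Benjamini-Hochberg adjusted p under 0.05 over all genes. The remaining 3 members, Col7a1, Col9a1 and Col17a1, had too few counts for the filter. Without it, Col7a1 was called higher in cKO (3.71, adjusted p = 0.00421 on the log2 scale), at levels close to the detection limit.

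Itga7 (the alpha 7 subunit, a laminin receptor; ENSMUSG00000025348.9, chr10:128933818-128958282, GRCm38) had the smallest p of all members in both genotypes. Control libraries held 68.2, 79.4 and 80.5 CPM when naive and 295, 329.6 and 250.2 CPM after crush. In cKO the values were 77.0, 78.7 and 80.1 CPM naive and 216, 338 and 255 CPM injured. Every injured library lay above every naive one of its genotype and of the other. The log2 fold change was 1.94 (SE 0.14, 3.84-fold, adjusted p = 4.53e-06) in control and 1.76 (SE 0.14, 3.39-fold, adjusted p = 1.01e-05) in cKO ganglia. Among 12 alpha subunits, leaving out the leukocyte ones and the platelet subunit Itga2b, per kilobase of exon, Itga7 made up 25.6 ± 1.84% (SD, n = 3) of the summed level in naive control and 48.3 ± 2.88% in injured control ganglia. The sum itself was 36.8 ± 2.74 CPM per kb naive and 74.3 ± 5.83 injured. The laminin-binding subunits Itga3, Itga6 and Itga7 together held 70.7 ± 2.38% and 84.1 ± 2.18% of it.

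Itga3 (alpha 3, a receptor for laminins with the alpha 5 or alpha 3 chain; ENSMUSG00000001507.16, chr11:95044474-95076801) rose from 48.1, 51.2 and 49.8 CPM to 103, 119 and 102 CPM in control and from 61.8, 53.3 and 60.2 to 91.8, 131 and 107 CPM in cKO, with no overlap (log2 fold change 1.12, SE 0.11, adjusted p = 3.63e-05 in control; log2 fold change 0.90, SE 0.11, adjusted p = 0.000202 in cKO ganglia). Their partner Itgb1 (ENSMUSG00000025809.15, chr8:128685654-128733200) rose from 275, 272 and 280.0 to 417, 435 and 397 CPM in control and from 273, 279.6 and 281 to 402, 456 and 392.2 CPM in cKO. The Itgb1 change was smaller but its replicates were close together (log2 fold change 0.60, SE 0.057, adjusted p = 2.72e-05; log2 fold change 0.57, SE 0.057, adjusted p = 4.62e-05). Itgav (alpha v, an RGD receptor subunit; ENSMUSG00000027087.11, chr2:83724397-83806916) had 32.3, 27.9 and 39.4 CPM in naive and 46.5, 44.9 and 40.4 CPM in injured control ganglia, and 30.1, 41.8 and 33.8 and 48.6, 51.3 and 46.0 CPM in cKO ganglia (control log2 fold change 0.41, SE 0.12, adjusted p = 0.0352; cKO log2 fold change 0.45, SE 0.12, adjusted p = 0.0241). Injured and naive libraries of Itgav did not overlap within a genotype, but the gap was small. The Itgav call was lost when most single libraries were left out, for example at adjusted p = 0.127 without injured control replicate 1 and 0.0931 without injured cKO replicate 2. Itga6, the other laminin-binding subunit, was at 71.2 ± 11.3 CPM in naive and 68.5 ± 5.33 CPM (SD, n = 3) in injured control ganglia, with a log2 fold change of -0.054 (adjusted p = 0.847), and -0.016 (adjusted p = 0.965) in cKO.

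**Figure D1:**
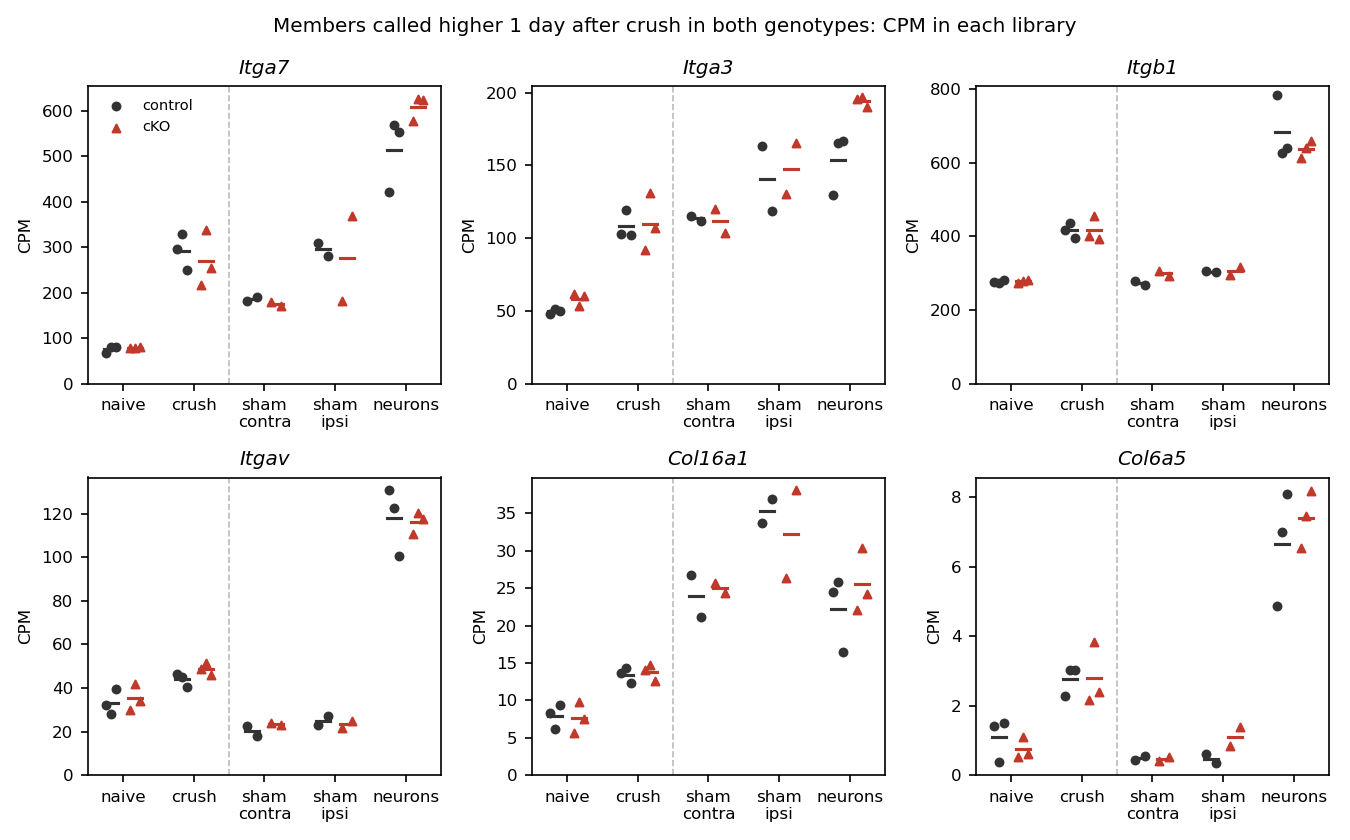
CPM of the 6 members that rose 1 day after sciatic crush in both genotypes, 1 panel per gene with its own vertical axis; each point is a library of naive, crush-injured or sham ganglia or of neurons, circles control and triangles cKO, horizontal bars are group means, and the dashed line separates the 2 count tables. Itga7 lies at 68.2 to 80.5 CPM in the 6 naive and 216 to 338 CPM in the 6 injured libraries.

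The collagens that rose were both minor ones by level. Col16a1 (a fibril-associated collagen; ENSMUSG00000040690.15, chr4:130047840-130099283) had 8.32, 6.17 and 9.30 CPM in naive and 13.7, 14.3 and 12.3 CPM in injured control ganglia. In cKO it had 5.66, 9.74 and 7.45 and 14.1, 14.7 and 12.6 CPM. The injured libraries lay above the naive ones in each genotype (log2 fold change 0.76, SE 0.17, adjusted p = 0.00806 in control; log2 fold change 0.84, SE 0.17, adjusted p = 0.00517 in cKO ganglia). Col6a5 (a type VI collagen alpha chain; ENSMUSG00000091345.9, chr9:105856078-105960643) went from 1.42, 0.383 and 1.504 to 2.27, 3.04 and 3.03 CPM in control and from 0.523, 1.09 and 0.592 to 2.15, 3.84 and 2.38 CPM in cKO ganglia (control log2 fold change 1.33, SE 0.39, adjusted p = 0.0282; cKO log2 fold change 1.90, SE 0.41, adjusted p = 0.00692). Without injured control replicate 3, the library whose transcripts go against its sex label, the Col6a5 change in control was 1.26 with adjusted p = 0.0738, and leaving out injured control replicate 2 or naive control replicate 2 also ended the call. In both genotypes the injured values of Col6a5 lay above the naive ones. Col9a2 (a type IX collagen chain of the fibril-associated kind) fell in both genotypes, from 6.52, 6.30 and 9.46 to 4.58, 4.24 and 3.43 CPM in control and from 4.53, 6.64 and 6.22 to 4.18, 3.20 and 4.11 CPM in cKO ganglia (control log2 fold change -0.86, SE 0.19, adjusted p = 0.00683; cKO log2 fold change -0.61, SE 0.19, adjusted p = 0.0476). In cKO the Col9a2 call was lost without any single one of 5 of the 6 libraries, naive cKO replicate 1 excepted, with adjusted p up to 0.162.

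The remaining calls were made in 1 genotype each, and the interaction test called no member, so none is shown to differ between genotypes. Lamb3 (the laminin beta 3 chain) fell in control, from 10.2, 5.87 and 6.85 to 4.45, 4.15 and 5.71 CPM (log2 fold change -0.67, SE 0.19, adjusted p = 0.0238), and was at -0.39 (adjusted p = 0.197) in cKO. Its position overlaps G0s2, whose counts equal 55.3% of its own, and without any one of naive control replicate 1 or injured control replicates 1 and 2 the call was lost (at -0.41 without the first). In cKO ganglia Lama3 (the laminin alpha 3 chain) rose from 2.53, 2.62 and 2.54 to 3.49, 5.13 and 3.65 CPM (log2 fold change 0.65, SE 0.17, adjusted p = 0.0202), with 0.37 (adjusted p = 0.159) in control. Itga4 (alpha 4, a receptor for fibronectin and VCAM-1) fell in cKO from 14.6, 15.0 and 14.7 to 12.3, 8.38 and 8.75 CPM (log2 fold change -0.60, SE 0.17, adjusted p = 0.0301). In control it went from 17.4, 12.5 and 15.3 to 9.94, 8.76 and 13.0 CPM, just outside the threshold (log2 fold change -0.51, SE 0.17, adjusted p = 0.0538); DESeq2, the RLE scaling and 4 further settings brought it inside. Itga4 overlaps Cerkl, whose counts equal 51.6% of its own. Col11a2 (type XI collagen) and Col13a1 (a transmembrane collagen) also fell in cKO. Col11a2 went from 0.828, 1.53 and 6.60 to 0.819, 0.345 and 0.616 CPM (log2 fold change -2.32, SE 0.72, adjusted p = 0.0413), and without naive cKO replicate 3, the only high library, its change was -0.98 with adjusted p = 0.269. Col13a1 went from 0.915, 0.655 and 1.35 to 0.560, 0.296 and 0.411 CPM (log2 fold change -1.20, SE 0.34, adjusted p = 0.0267).

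In cKO, 5 calls held without injured cKO replicate 2, the library whose transcripts go against its label: Itga7, Itga3, Itgb1, Col16a1 and Col6a5. The other 6 did not, and each of them was also lost without at least 1 other library. With sex read from transcripts as a term, 3 members rose in cKO (Itga7, Itga3 and Itgb1) and 0 fell, while 6.65% of all genes were called. Injured cKO replicates 2 and 3 were the only libraries of that fit with male transcripts. With the sex term, the cKO comparison therefore rested on injured cKO replicate 1 alone against the naive libraries. DESeq2, without the sex term, called 7 members higher and 3 lower, and 17.2% of all genes. With the sex term, Col16a1 was at 0.88 with adjusted p = 0.0579, and Col6a5 at 1.54 with adjusted p = 0.138.

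**Figure D2:**
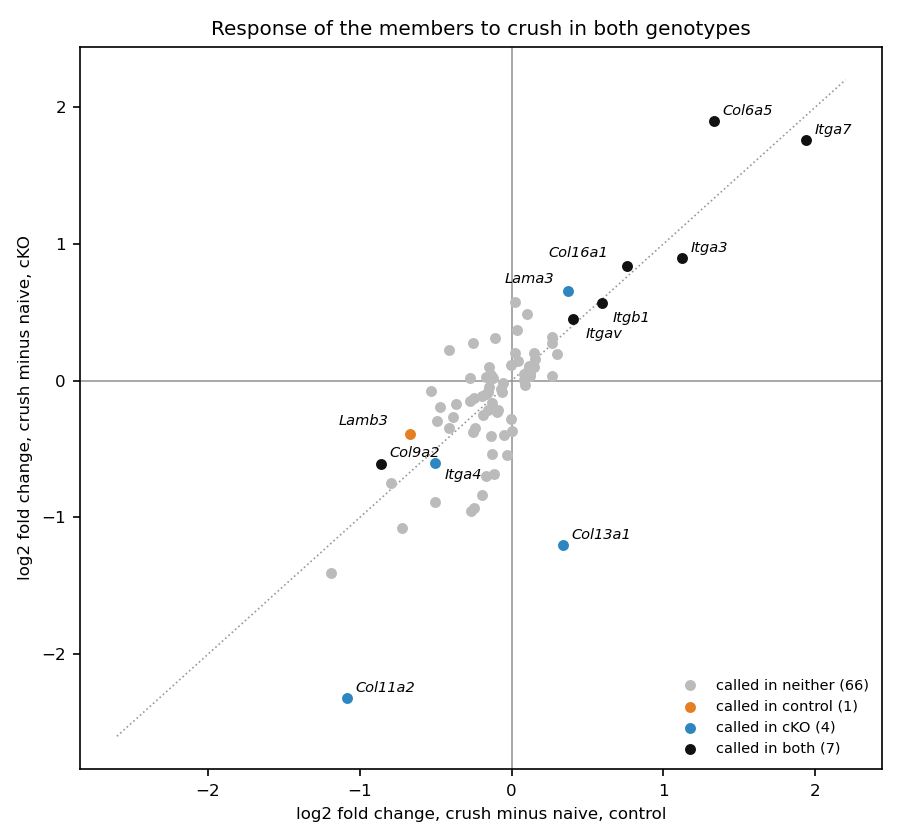
Log2 fold change, injured minus naive, of each of the 78 tested members in control (horizontal axis) and cKO ganglia (vertical axis), coloured by whether called in both, in control, in cKO or in neither; the dotted line marks equal change. Itga7 stands at 1.94 and 1.76, and 65 members have the same sign on both axes.

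The abundant structural genes did not pass the test 1 day after crush. The fibre collagens Col1a1, Col1a2 and Col3a1, which form types I and III, had log2 fold changes of -0.27, -0.17 and -0.13 in control (adjusted p = 0.661, 0.764 and 0.814) and -0.96, -0.69 and -0.54 in cKO (adjusted p = 0.101, 0.174 and 0.270). Col1a1 varied widely among naive libraries, at 107, 86.2 and 135 CPM in control and 44.1, 128 and 172 CPM in cKO. Without naive cKO replicate 1, the lowest of those, Col1a1 and Col1a2 were called lower in injured cKO ganglia (-1.35, adjusted p = 0.00336; -1.05, adjusted p = 0.00837). The basement membrane pair Col4a1 and Col4a2 had log2 fold changes of 0.15 and 0.11 in control and 0.16 and 0.11 in cKO. Among the laminins, Lama2, Lama4, Lamb1, Lamb2 and Lamc1 were at -0.27, -0.12, 0.12, -0.15 and 0.083 in control and -0.15, 0.022, 0.038, -0.047 and 0.0087 in cKO, all with adjusted p above 0.05. Their 95% intervals in control ran from -0.28 to 0.44 for Lamc1 and from -0.41 to 0.17 for Lama4. Per kilobase of exon, Lama4 was the main alpha chain, at 54.2% ± 3.41 (SD, n = 3) of the alpha chains in naive and 52.6% ± 4.01 in injured control ganglia, followed by Lama2 at 23.3% ± 2.23 and 20.5% ± 0.706. Lamc1 held 82.9% ± 0.655 and 85.6% ± 0.560 of the gamma chains. The summed alpha chains were 4.43 ± 0.656 CPM per kb naive and 4.18 ± 0.112 injured.

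Partner genes of these proteins were followed in lists chosen for their function, beside 21.6% of all genes called in control and 18.6% in cKO. Of 36 other matrix and basement membrane genes, 5 rose and 0 fell in control (13.9%), and 5 rose and 1 fell in cKO (16.7%). The heparan sulphate coreceptor Sdc1 went from 48.2 CPM naive to 139 CPM injured (log2 change 1.53, adjusted p = 1.91e-05) in control, and the elastic fibre gene Fbln5 from 87.0 CPM naive to 127 CPM injured (log2 change 0.54, adjusted p = 0.00172). Spp1 (osteopontin, a ligand of alpha v integrins) rose in cKO, from 149 CPM naive to 223 CPM injured (log2 change 0.57, adjusted p = 0.00237). Of 32 enzymes that hydroxylate, fold, cross-link or trim collagen, 7 rose and 1 fell in control (25%), and 7 rose and 3 fell in cKO (31.2%). In control they included Plod3, a lysyl hydroxylase, from 23.0 CPM naive to 39.1 CPM injured (log2 change 0.77, adjusted p = 4.44e-05), the prolyl hydroxylase subunit P4ha3 from 20.1 CPM naive to 30.8 CPM injured (log2 change 0.62, adjusted p = 0.000173), and Mia3, which helps load collagen into transport carriers, from 98.0 CPM naive to 144 CPM injured (log2 change 0.56, adjusted p = 0.000677). The protease Tll1 fell, from 7.49 CPM naive to 4.89 CPM injured (log2 change -0.61, adjusted p = 0.00252). Collagen chains of types I, III and V were not called in the same libraries of either genotype. Among the other fibril-forming chains, Col11a2 was called lower in cKO.

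Of 25 matrix proteases and inhibitors, 5 rose and 1 fell in control (24.0%), and 6 rose and 3 fell in cKO (36.0%), beside the same 21.6% and 18.6% of all genes. Plaur (the urokinase receptor) rose in control, from 7.06 CPM naive to 45.8 CPM injured (log2 change 2.70, adjusted p = 4.85e-06). The membrane metalloprotease Mmp16 went from 11.4 CPM naive to 39.8 CPM injured (log2 change 1.804, adjusted p = 1.67e-05) and the inhibitor Timp1 from 1.74 CPM naive to 8.28 CPM injured (log2 change 2.25, adjusted p = 0.000265). In cKO their log2 fold changes were 2.70 (adjusted p = 5.43e-06), 1.70 (adjusted p = 3.28e-05) and 2.49 (adjusted p = 0.000187). Of 35 integrin adaptors and kinases, 6 rose and 0 fell in control (17.1%), and 5 rose and 2 fell in cKO (20%). Ptk2 (focal adhesion kinase) went from 35.4 CPM naive to 48.4 CPM injured (log2 change 0.45, adjusted p = 3.72e-05) in control and Bcar1 (p130Cas, its substrate) from 50.5 CPM naive to 71.6 CPM injured (log2 change 0.51, adjusted p = 0.00568). The small GTPase Rap1b went from 138 CPM naive to 195 CPM injured (log2 change 0.50, adjusted p = 0.000134), and the focal adhesion gene Zyx from 83.2 CPM naive to 114 CPM injured (log2 change 0.45, adjusted p = 0.00195). In cKO the talin gene Tln2 fell, with a log2 fold change of -0.37 (adjusted p = 0.0133).

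Markers of other cells were read in the same libraries. By edgeR and by DESeq2 alike, 0 of the 7 Schwann cell, 7 fibroblast, 7 macrophage, 3 monocyte and 5 neutrophil markers were called in either genotype. At an unadjusted p under 0.05 there were 0 on these lists in control, and in cKO 2 fibroblast, 1 monocyte and 4 neutrophil markers. The shares of all genes at that level were 33.8% in control and 30.8% in cKO. The called markers (edgeR) were 1 of 10 neuron markers, lower, in control and 2, lower, in cKO, 3 (2 higher) and 1 (higher) of 5 for satellite glia, 2 (1 higher) in each genotype of 4 for perineurial cells, 1 and 0 of 7 for endothelium, 2 (1 higher) and 0 of 6 for pericytes and smooth muscle, 1 and 0 of 5 for lymphocytes and 0 and 2 of 5 for platelets and erythrocytes. The fibroblast sum was 636 to 939 CPM in naive and 583 to 732 CPM in injured control libraries, and the Schwann cell sum 3702 to 4876 and 3486 to 4519 CPM. The neuron sum was 11805 to 13904 CPM naive and 11710 to 12455 CPM injured. In control the sums of satellite glia (1730.0 to 1776 CPM naive, 1864 to 2004 injured), perineurial cells (96.2 to 130.0 and 133 to 135) and pericytes with smooth muscle (298 to 348 and 386 to 411) were higher in injured libraries without overlap. In cKO only the perineurial sum of these was apart (87.3 to 119 CPM naive, 125 to 129 injured). The sums of satellite glia (1688 to 1945 and 1901 to 2132) and pericytes with smooth muscle (297 to 382 and 373 to 406) overlapped there. No marker gene was at 0 counts in any group. Which cells carried the rise of Itga7, Itga3 and Itgb1 was not tested.

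No member differed between cKO and control in any of the 5 settings, and none had an injury response that differed between genotypes (edgeR, adjusted p under 0.05). The share of all genes called was 0.00941% in naive and 0.00941% in injured ganglia, 0% for the interaction, 0% in neurons, 0.00451% in sham ipsilateral and 0% in sham contralateral ganglia, so few genes of any kind were called. At an unadjusted p under 0.05 there were 1 of 78 members in naive ganglia, 0 in injured ganglia and 1 for the interaction, and 14 of 80 in neurons, 10 in sham ipsilateral and 1 in sham contralateral ganglia. The shares of all genes at that level were 5.79%, 2.72%, 2.95%, 8.0%, 7.59% and 5.23% in the same order. DESeq2 called 0.0141% of all genes in naive and 0.00941% in injured ganglia, and 0% for the interaction. It called 0.69% in sham ipsilateral and 0.14% in sham contralateral ganglia, with 0 members in any of these comparisons. In neurons it called 2 members lower and 0.700% of all genes. Those 2 were Col7a1 (the anchoring fibril collagen), at 7.57, 10.1 and 9.57 CPM in control and 5.52, 6.18 and 6.26 CPM in cKO neurons, and Col13a1, at 70.8, 64.1 and 41.4 and 37.4, 37.4 and 38.3 CPM. For both genes all 3 cKO libraries were below all 3 control libraries. The edgeR adjusted p were 0.354 and 0.506 (log2 fold changes -0.61, SE 0.12, and -0.64, SE 0.18), those of DESeq2 0.00330 and 0.0445. Without neuron control replicate 3 edgeR called Col13a1 too (-0.84, adjusted p = 0.0351). In naive ganglia Col13a1 had the opposite sign, at 1.28 (SE 0.34, adjusted p = 0.754).

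The precision of the genotype comparisons can be read from Itga7. The 95% interval of its log2 difference, cKO minus control, ran from -0.25 to 0.37 in naive ganglia, from -0.42 to 0.18 in injured ganglia and from -0.0049 to 0.49 in neurons. For Itgb1 the intervals were -0.10 to 0.15, -0.13 to 0.12 and -0.36 to 0.14. For the interaction, the extra response of cKO ganglia to crush was -0.18 for Itga7 (-0.61 to 0.25) and -0.23 for Itga3 (-0.57 to 0.12). The fibre collagen Col1a1, with its wide spread, allowed -0.72 to 0.87 in naive ganglia. On each of the 4 lists of partner genes edgeR made 0 calls in each genotype comparison, with 0 to 7 genes per list at an unadjusted p under 0.05 and 0 to 2 called by DESeq2.

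After sham surgery the group means of the operated and the other side were compared, without a term for the mouse (with one, 0 members were called). No member was called (edgeR; 0.00451% of 22160 genes were), with 7 of 80 at an unadjusted p under 0.05, beside 7.56% of all genes. DESeq2 called Col16a1 and Itga3 higher, in a comparison where it called 0.903% of all genes. The crush responders Col16a1, Itga7 and Itga3 were among the 4 members with the smallest p. Itga7 had 181 and 190.3 CPM contralateral and 309.9 and 279 CPM ipsilateral in the control mice, and 179 and 169.7 against 182 and 369 CPM in the cKO mice, each pair in the order of the mice. It was higher on the operated side in 4 of 4 mice, though by little in the cKO mouse 1 (log2 fold change 0.69, SE 0.19, adjusted p = 0.475). Leaving out that mouse's operated side removes the library closest to its other side and leaves 1 library in its group. The log2 fold change of Itga7 was then 0.89. Col16a1 had 26.7 and 21.1 CPM contralateral and 33.8 and 37.0 CPM ipsilateral in the control mice, and 25.7 and 24.4 against 26.4 and 38.2 CPM in the cKO mice, each pair in the order of the mice (log2 fold change 0.49, SE 0.13, adjusted p = 0.449; DESeq2 adjusted p = 0.0159). Itga3 had 116 and 112 CPM contralateral and 163 and 118 CPM ipsilateral in the control mice, and 120.1 and 104 against 130.1 and 165 CPM in the cKO mice, each pair in the order of the mice (log2 fold change 0.38, SE 0.12, adjusted p = 0.525; DESeq2 adjusted p = 0.0449). With no filter on low counts, all 3 were called in edgeR, along with 1.09% of all genes. The Itga7 share of the same 12 alpha subunits per kilobase was 39.98 ± 2.35% (SD, n = 2) contralateral and 48.5 ± 1.49% ipsilateral in control mice, both above the 25.6 ± 1.84% of naive control ganglia. In injured control ganglia it was 48.3 ± 2.88%, close to the ipsilateral sham value. Crush was not tested against sham surgery, and the 2 lie in different count tables.

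The contralateral ganglia of sham controls also differed from naive control ganglia, and this sets the scale for every comparison across the 2 count tables. Of 80 members 14 were higher and 12 lower, 32.5% against 57.1% of all 24425 genes tested. The higher ones were Col16a1, Col5a3, Col13a1, Col17a1, Itga7, Itga3, Col4a1, Itga2b, Itga11, Col9a2, Col19a1, Col28a1, Lamb1 and Itgb5, at log2 fold changes of 0.46 to 1.60. The lower ones were Col8a1, Col6a4, Itgb8, Col6a5, Col4a4, Col8a2, Col6a3, Itga4, Col25a1, Itgav, Itga9 and Itga1, at -2.43 to -0.43. Itga7 had 181 and 190.3 CPM in the 2 contralateral libraries against 68.2, 79.4 and 80.5 CPM in naive control ganglia (log2 fold change 1.29, SE 0.11, adjusted p = 5.88e-08). Of the other crush responders, Itga3 and Col16a1 were also among the higher ones, at 1.20 and 1.60. Itgb1 was at 278 and 268 CPM contralateral against 275, 272 and 280.0 CPM naive (log2 fold change -0.0091, adjusted p = 0.935), and Itgav and Col6a5 were among the lower ones. The calls of Col13a1, Col17a1, Col19a1, Col28a1, Col4a1, Col6a3, Col6a4, Col6a5, Col8a2, Col9a2, Itga1, Itgb5 and Lamb1 were each lost without at least 1 of the 5 libraries. Without contralateral control replicate 1, Col4a1 was at 0.65 and Lamb1 at 0.28, and without replicate 2 Col8a2 was at -0.70. Surgery, the sex of the mice, the tamoxifen named in the labels and the count table all differ between these groups and cannot be told apart.

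Neurons in culture for 24 hours differed from naive ganglia in most members: the type IV collagen chains Col4a1 and Col4a2, most laminin chains, the type V collagens and several integrin subunits were higher, and the type I and III collagens were lower. Of 80 tested members 36 were higher and 23 lower in control, 73.8% against 80.3% of all genes. In cKO 36 were higher and 18 lower, 67.5% against 78.9%. The 2 comparisons shared 34 higher members (94.4% of each 36) and 18 lower ones (78.3% of 23 and 100% of 18). The sign was shared by 75 of 80 members, beside 94.1% of all genes. The median member stood at 0.47 in control, beside -0.018 for all genes. In control all 11 laminins were called, 8 higher and 3 lower, along with 9 and 8 of 26 integrins and 19 and 12 of 43 collagens. The tables, the mice and the tissue all differ between the groups, and culture cannot be told apart from them. Both this and the injury comparison use the naive libraries, so their values are given side by side without a measure of likeness.

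Several basement membrane genes were among the most raised. Col4a1 (the type IV collagen alpha 1 chain; ENSMUSG00000031502.11, chr8:11198423-11312826) had 41.4, 33.1 and 52.6 CPM in naive ganglia and 968, 755 and 542 CPM in neurons of controls (log2 fold change 4.17, SE 0.28, adjusted p = 3.56e-09). Its divergent neighbour Col4a2 (ENSMUSG00000031503.13, chr8:11312805-11449287) had 39.0, 33.0 and 48.1 CPM in naive ganglia and 703, 585 and 397 CPM in neurons (log2 fold change 3.83, SE 0.27, adjusted p = 4.51e-09). In the annotation the 2 genes overlap at their starts, which are 21 bases apart in RefSeq, so a small part of their reads may be counted for both. Lamc1, the common laminin gamma chain, had 55.6, 44.7 and 70.2 CPM in naive ganglia and 489, 473 and 416 CPM in neurons (log2 fold change 3.03, SE 0.19, adjusted p = 1.23e-09). The alpha chains Lama4, Lama5, Lama2 and Lama3 were higher by 3.53, 4.19, 2.53 and 1.04 on the log2 scale, and the beta chains Lamb1 and Lamb2 by 2.21 and 0.88. Per kilobase of exon the summed alpha, beta and gamma chains were 41.1, 34.0 and 57.5 CPM per kb in control neurons, against 4.43, 12.1 and 8.30 in naive control ganglia. Within the alpha chains, Lama5 held 17.5% ± 1.34 (SD, n = 3) in neurons and 8.93% ± 0.715 in ganglia, and within the beta chains Lamb1 held 66.0% ± 1.32 and 41.4% ± 6.46. Col18a1, a basement membrane collagen that overlaps Slc19a1 (with 69.7% as many counts), was higher by 3.87.

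Endothelial markers moved with these genes: all 7 (Pecam1, Cdh5, Cldn5, Flt1, Tie1, Egfl7 and Emcn) were called higher in neurons of both genotypes. Their sum was 124 to 163 CPM in naive control ganglia and 1317 to 1804 CPM in control neurons, and 113 to 197 against 1207 to 1361 CPM in cKO. Vessel endothelium makes type IV collagen and the laminin chains alpha 4, alpha 5, beta 1 and gamma 1. The neuron marker sum was 11805 to 13904 CPM in naive control ganglia and 5895 to 7540.0 CPM in control neurons, and the Schwann cell sum 3702 to 4876 and 826 to 937 CPM. Of 4 perineurial markers, 1 (Slc2a1) was called higher and 3 lower in each genotype, with a sum of 96.2 to 130.0 CPM in naive control ganglia and 276 to 313 CPM in control neurons. No marker on these 4 lists was at 0 counts in a group, and the part of the other cells in the basement membrane values was not tested.

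Among the receptors, Itga7 had 68.2, 79.4 and 80.5 CPM in naive ganglia and 422, 567 and 552 CPM in neurons of controls (log2 fold change 2.77, SE 0.10, adjusted p = 4.16e-12), and 77.0, 78.7 and 80.1 against 576, 626 and 624 CPM in cKO (2.96, adjusted p = 2.27e-12). Its log2 fold change after crush was 1.94 in control. The fibronectin receptor subunit Itga5 had 5.79, 5.24 and 6.89 CPM in naive ganglia and 134, 148 and 113 CPM in neurons (log2 fold change 4.47, SE 0.19, adjusted p = 1.41e-11), while its log2 fold change after crush was -0.0018 (adjusted p = 0.996). Itgb1, Itga3, Itga6, Itgav, Itgb3 and Itga2 were higher by 1.33, 1.65, 1.07, 1.85, 1.82 and 1.40. Itga4 went the other way, with 17.4, 12.5 and 15.3 CPM in naive ganglia and 1.31, 1.98 and 1.95 CPM in neurons (log2 fold change -3.04, SE 0.16, adjusted p = 1.98e-10). The collagens that were raised included Col13a1, with 0.472, 0.255 and 0.475 CPM in naive ganglia and 70.8, 64.1 and 41.4 CPM in neurons, and Col7a1, with 0.0429, 0.128 and 0.158 CPM in naive ganglia and 7.57, 10.1 and 9.57 CPM in neurons. Both were close to the detection limit in ganglia, so the fitted log2 fold changes of 7.20 and 6.35 depend on the prior count. Col5a1, Col5a2, Col5a3, Col6a4, Col6a5, Col27a1 and Col12a1 were higher by 0.92, 3.40, 2.45, 2.91, 2.62, 2.48 and 2.17.

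The collagens that were lower in neurons included Col8a2 (a short-chain collagen), with 58.8, 23.2 and 52.9 CPM in naive ganglia and 0.555, 0.834 and 0.649 CPM in neurons of controls (log2 fold change -5.95, SE 0.46, adjusted p = 1.55e-08), and Col25a1, Col23a1 and Col4a4 at -2.94, -2.02 and -2.02. Col1a1 had 107, 86.2 and 135 CPM in naive ganglia and 31.4, 83.3 and 15.2 CPM in neurons (log2 fold change -1.31, SE 0.53, adjusted p = 0.0355), and Col1a2 and Col3a1 were lower by a log2 change of -1.20 and -1.14. Neuron control replicate 2 stands apart for Col1a1, and without it the change was -2.25 (adjusted p = 0.00138). Without neuron control replicate 3 the calls of all 3 were lost (adjusted p = 0.113, 0.0506 and 0.0581), that of Col1a1 also without neuron control replicate 1 or naive control replicate 1 or 3, and that of Col3a1 without naive control replicate 3. In cKO the Col3a1 call was lost without any single one of 5 of the 6 libraries, at -0.54 without naive cKO replicate 2. Of 7 fibroblast markers, 6 were called lower and 1, Pdgfra, higher in each genotype, with a summed level of 636 to 939 CPM in naive control ganglia and 255 to 324 CPM in control neurons. Their part in the fall of Col1a1, Col1a2 and Col3a1 was not tested. The remaining calls in control covered log2 fold changes from -1.82 to 1.5. Among the control calls, Itgb2 was lower, at -1.98 to -0.48 with 1 library left out. Its call was lost without naive control replicate 1 or neuron control replicate 1 or 3.

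Of 36 matrix partners 14 were higher and 10 lower in control neurons, with Tnc (tenascin C) at 6.60 (adjusted p = 1.98e-11) and Hspg2 (perlecan, a basement membrane proteoglycan) at 3.34 (adjusted p = 1.15e-08) on the log2 scale. Of 32 collagen processing genes 23 were higher and 5 lower. Of 28 proteases and inhibitors 17 were higher and 6 lower, with Plaur at 4.32 (adjusted p = 7.04e-12). Of 35 adaptors 23 were higher and 9 lower. In cKO the counts higher and lower were 17 and 10, 22 and 5, 18 and 3, and 22 and 8 in the same order. The shares called were 66.7%, 87.5%, 82.1% and 91.4% in control beside 80.3% of all genes, and 75.0%, 84.4%, 75.0% and 85.7% in cKO beside 78.9%.

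**Figure D3:**
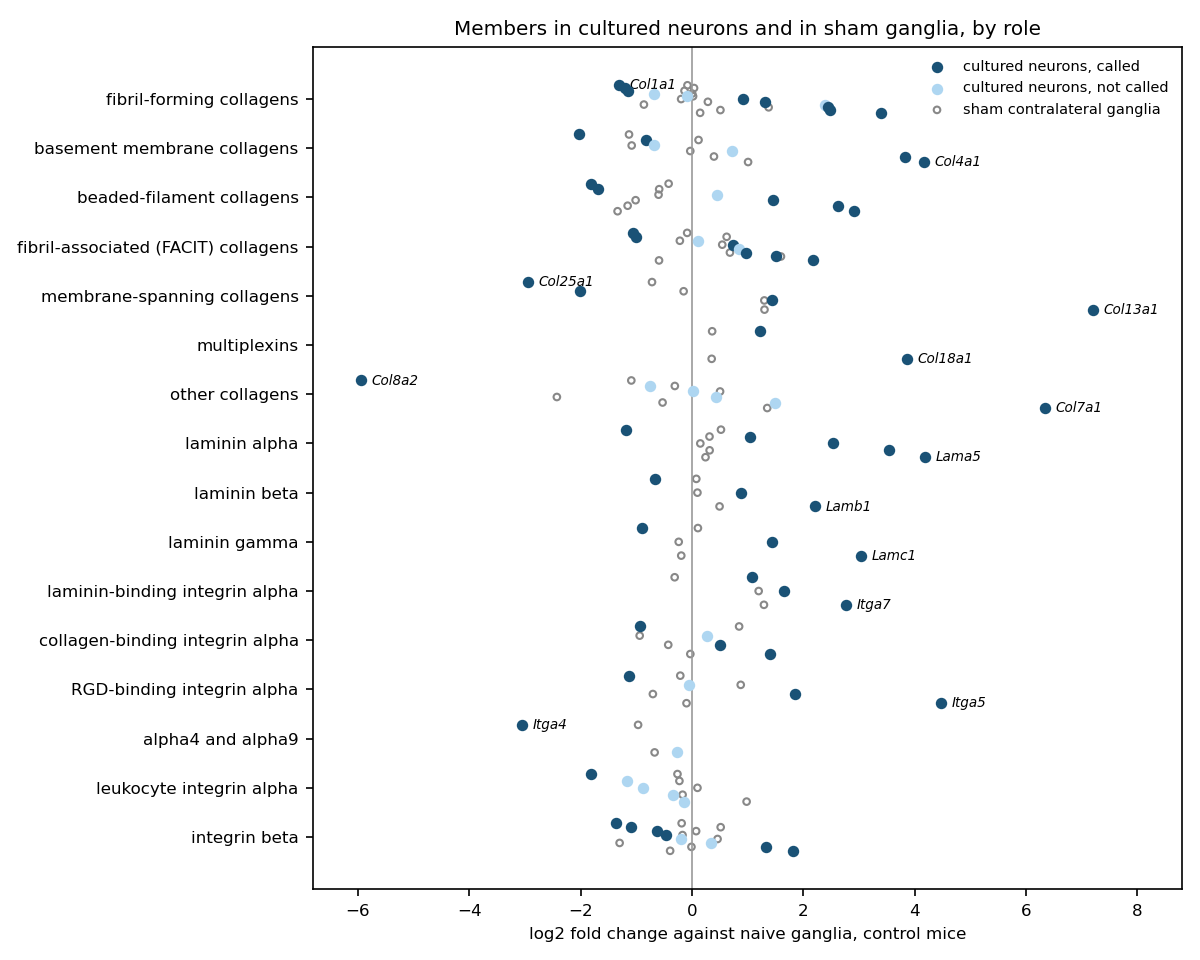
Log2 fold change against naive control ganglia (horizontal axis) of each tested member by role (vertical axis), filled points for control neurons in culture (dark called, light not called) and open points for sham contralateral control ganglia. All 11 laminins were called, 8 of them higher, and the members span -5.95 to 7.20.

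Among the leukocyte integrins Itgb2, Itgam and Itgal varied between libraries of 1 group, and the neutrophil markers varied along with them: the Spearman correlation with their sum over the 20 ganglion libraries was 0.956, 0.941 and 0.886. It was 0.692 for Itgb7, 0.349 for Itgad, 0.217 for Itgae and 0.143 for Itgax, libraries of 2 tables being pooled in each value. The correlation with the fibroblast sum was 0.740, 0.717, 0.777 and 0.681 for Itgb2, Itgam, Itgal and Itgb7, and 0.507 for Itgax. Itgb2 (the beta 2 subunit) was at 6.60 to 28.9 CPM in naive control, 6.88 to 19.5 in injured control, 9.11 to 17.2 in naive cKO and 4.29 to 9.31 in injured cKO ganglia. The summed level of 5 neutrophil markers (S100a8, S100a9, Retnlg, Ly6g and Cxcr2) was 102 to 635, 92.2 to 369, 169 to 334 and 50.7 to 116 CPM in the same groups, and none of the 5 was at 0 in any group. Naive control replicate 1 had the highest sum of the 20 ganglion libraries, 635 CPM, with 28.9 CPM of Itgb2. Sham ipsilateral cKO replicate 1 came second with 541 CPM, and had the most Itgb2, 36.0 CPM. Itgam (the alpha M subunit, CD11b) was at -0.11 (adjusted p = 0.909) after crush in control and Itgb2 at -0.25 (adjusted p = 0.785). In cKO they were at -0.69 (adjusted p = 0.481) and -0.93 (adjusted p = 0.282), beside neutrophil sums that were lower in injured cKO libraries without overlap, and neither was called in either genotype. Itgam shares its position with the transcript Gm49368, which has 102% as many counts, so its own level is uncertain. In sham ipsilateral ganglia the 2 cKO libraries were above the 2 control ones for Itgb2 (36.0 and 14.8 against 12.7 and 8.66 CPM), uncalled in the test with the filter on low counts (log2 fold change 1.28, SE 0.38, adjusted p = 0.528). Without the filter Itgad, Itgal, Itgam, Itgb2 and Itgb7 were called higher there, at adjusted p from 0.000513 to 0.00832, among 626 genes called in all, against 1 with the filter. Itgad rests on 1 library: it had 0.716 and 14.5 CPM in the 2 cKO and 0.513 and 0.414 CPM in the 2 control libraries, and it overlaps Cox6a2, with 74.6% as many counts. The neutrophil sums of these groups were 254 to 541 CPM in cKO and 139 to 190.1 CPM in control, and those of 3 monocyte markers 20.6 to 40.3 and 10.6 to 14.1 CPM. All 5 neutrophil and 3 monocyte markers had an unadjusted p under 0.05, 0 were called by edgeR, and DESeq2 called 2 monocyte markers. The part of such cells in these values was not tested.

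**Figure D4:**
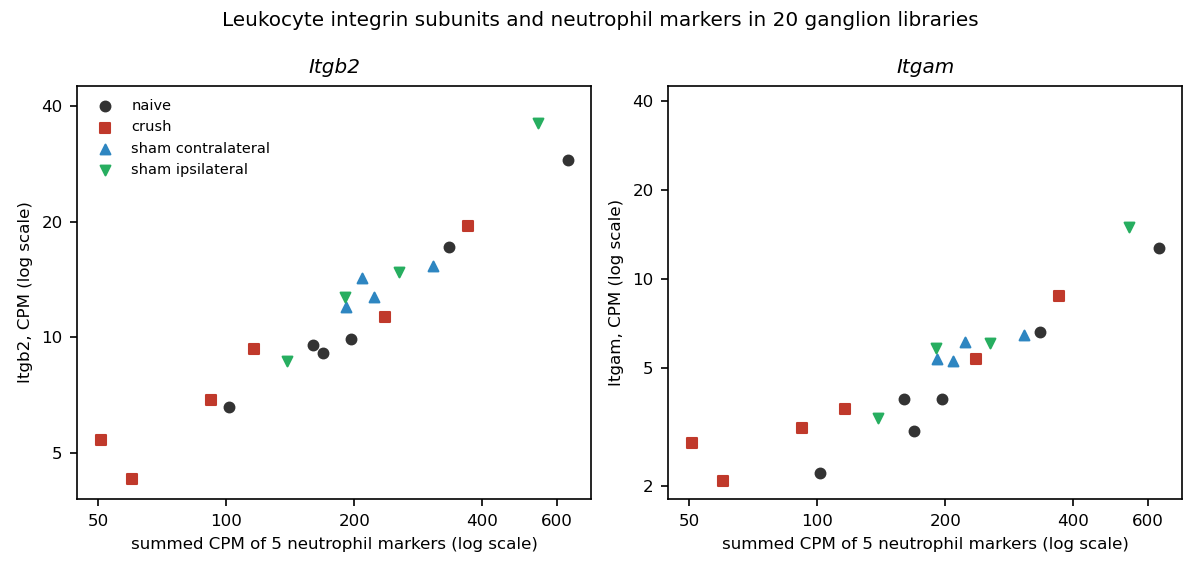
CPM of the leukocyte integrin subunits Itgb2 and Itgam (vertical axes, log scale) against the summed CPM of 5 neutrophil markers (horizontal axis, log scale), 1 point per ganglion library. Naive control replicate 1, at 635 CPM of neutrophil markers, and sham ipsilateral cKO replicate 1, at 541, lie at the upper right in both panels.

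The members whose log2 CPM followed Itga7 most closely over the 20 ganglion libraries were Col7a1 (Spearman 0.867), Lama3 (Spearman 0.842), Itgb1 (Spearman 0.777), Itga3 (Spearman 0.777) and Col16a1 (Spearman 0.647). Over the 12 naive and injured libraries alone the values were 0.879, 0.951, 0.916, 0.874 and 0.860 in the same order. These are descriptions over libraries that share the crush contrast, and for the 20 libraries also the split into 2 tables. Col7a1, the closest over the 20 libraries but not over the 12, was barely detected in ganglia: 0.0429, 0.128 and 0.158 CPM in naive and 0.318, 0.357 and 0.491 CPM in injured control, and 0, 0.0873 and 0 and 0.302, 0.789 and 0.287 CPM in cKO ganglia.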

How the data were processed

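RNA of 26 mouse DRG libraries was sequenced after a TruSeq Stranded mRNA preparation, per the labels' protocols. The authors deposited read counts per gene in 2 tables of 55401 genes, made with Trim Galore, HISAT2 and featureCounts on build mm10, per the submitters' processing notes; versions and the strand setting are not given in the sources used here. The authors also deposited FPKM, whose implied length was the gene's span with introns (GENCODE M21) within 0.1% for 99.4% of genes, so FPKM served only as an alternative order of levels. Genes that overlap in position can share reads: among members named here, Col18a1, Col4a1, Col4a2, Itga1, Itga4, Itga9, Itgad, Itgae, Itgam and Lamb3 overlap a gene with at least 25% as many counts. No value column was left unmapped, and 99.53% of identifiers had a symbol.

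Counts were tested with edgeR 4.0.16 in R 4.3.3: quasi-likelihood tests on contrasts of group means without covariates, TMM scaling, filterByExpr (minimum count 10, minimum total 15), and Benjamini-Hochberg adjustment over all genes of the fit, two-sided, called under 0.05. The 12 naive and injured libraries were 1 fit (21261 genes), the 6 neuron libraries another (23295) and the 8 sham libraries another (22160). Naive, contralateral sham and neuron libraries were fitted together for comparisons across tables (24425). The script was tested on simulated data. CPM are counts on 1 TMM scale over all 26 libraries, and CPM per kb divides them by the union of exons in GENCODE M21. The standard error is the fold change over the square root of F. Replicates of a group differed by more than counting noise (chi-square per degree of freedom 3.14 to 36.3). The labels tie the 2 sides of a sham mouse together, with deviations that correlated at 0.229 in control and -0.159 in cKO mice; the labels tie no other numbers to a shared animal, litter or day. The members (as a group taken by symbol), lists and tests were chosen with earlier results of these data known. Named are all called members (the 30 smallest p where more were called), 16 members of set interest in the injury and culture comparisons, the 5 highest members per tissue, called list genes and the 5 members most like Itga7. Alternatives were DESeq2 1.42.0, RLE scaling, other filters, replicate or sex terms and leaving out each library. The values of 2 genes are not reported here.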

Additional observations from a re-analysis of the deposited data

Results flagged for a closer look

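For 13 members, every cKO library lay on one side of the controls in one setting and on the other side in a second setting, or the sides of the sham mice moved oppositely in the genotypes. This held for 15 of 1053 pairs of settings examined (1.42%, beside 1.9% over 24425 tested genes), in groups of 2 or 3 libraries, and the difference was not tested in any of them. Values are the difference between the 2 settings in cKO minus control, on log2 of the mean CPM plus 0.5. Col13a1, the transmembrane collagen that DESeq2 called lower in cKO neurons, was higher in cKO in naive ganglia, and naive ganglia exceeded neurons by 1.34 and ipsilateral sham ganglia by 1.22. Between injured and ipsilateral sham ganglia the difference was -1.21 for Col3a1, -0.78 for Col5a1, -0.63 for Col14a1 and -0.55 for Col11a1, all matrix collagens that were lower in injured cKO and higher in sham cKO ganglia. For Lama4 it was 0.30. For the leukocyte subunit Itgad it was -3.24, which rests on 1 library, ipsilateral sham cKO replicate 2 at 14.5 CPM beside 0.716 CPM in replicate 1. Between neurons and ipsilateral sham ganglia it was 0.70 for Col23a1 and 0.71 for Lama1. Between neurons and contralateral sham ganglia it was 0.33 for Itga7 and 0.80 for Itga2. Itgae, whose counts overlap those of Haspin, differed by 0.30 between the ipsilateral and the contralateral side in cKO minus control, which as a contrast of sides is -0.30 for control less cKO.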

How the results depend on the processing

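Across settings other than leaving out a library, 124 member counts stayed within 1.5 times and 8 moved. After crush in cKO ganglia the sex term gave 3 members higher and 0 lower, and 2 were lower with at least 10 counts in every library or with the replicate number as a block. DESeq2 called 2 members lower in cKO neurons and 2 higher on the ipsilateral side of sham mice, beside 0.7% and 0.903% of all genes. Without a filter on low counts, 5 members were higher in cKO in ipsilateral sham ganglia and 3 were higher on the ipsilateral side. Those 2 comparisons called 1.79% and 1.09% of all genes. Leaving out 1 library at a time gave 1 to 5 members lower after crush in control and 0 to 4 in cKO, 0 to 1 lower in cKO neurons, 0 to 1 higher in cKO in ipsilateral sham ganglia, 0 to 1 higher on the ipsilateral side and 7 to 15 lower in contralateral sham than in naive ganglia. Where this left 1 library in a sham group, it was assumed to vary like the others. Over all genes, in either direction, the removals called 3116 to 4072 after crush in control and 2660 to 3747 in cKO. For cKO minus control in neurons they called 0 to 15. With every library kept, 57.1% of all genes were called between contralateral sham and naive ganglia. The causes were not tested.

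Signs turned only for members that were not called. In cKO after crush the sex term gave 0.010 for Lama2, -0.035 for Lama4 and 0.099 for Itga6, and the filter of 10 counts gave -0.00013 for Lamc1. With 1 library left out the log2 fold changes after crush ran, in control, for Col1a2 -0.33 to 0.027, Col3a1 -0.38 to 0.12, Col4a2 -0.0072 to 0.26, Lamc1 -0.063 to 0.26, Itga6 -0.13 to 0.080, Itgam -0.56 to 0.91 and Itgb2 -0.72 to 0.64, and in cKO for Col4a1 -0.042 to 0.48, Col4a2 -0.049 to 0.39, Lama2 -0.25 to 0.0049, Lama4 -0.085 to 0.19, Lamb1 -0.065 to 0.19, Lamb2 -0.19 to 0.17, Lamc1 -0.16 to 0.20 and Itga6 -0.15 to 0.20. For neurons against naive ganglia in cKO they ran for Itgam -0.12 to 0.96 and Itgb2 -0.80 to 0.051.

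Replicate numbers do not pair the libraries of naive and injured ganglia: same-numbered deviations correlated at -0.418 to 0.412. In neurons they correlated at 0.0642 to 0.221, with 6 of 6 libraries closest to their own number, a hint from the data only. With the replicate block, 4390 genes were called after crush in control and 3707 in cKO, against 4601 and 3962 without it, and the block changed no member count by over 1.5 times except the 2 lower members in cKO. With each of the 4 mice as a block, 4 genes and 0 members were called between sham sides, and with the sides of the 2 cKO mice paired the other way 9 genes and 0 members. RLE scaling moved the median of all genes for contralateral sham minus naive from -0.04 to -0.11 on the log2 scale. The order of members by CPM per kb and by FPKM had a Spearman correlation of 0.921 to 0.937 over 81 members, which are not independent. Depth limits the members under 1 CPM per kb most; what difference 2 or 3 mice per group could show was not tested.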
